A study of Caenorhabditis elegans with 6 samples.

Results

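T-box transcription factors are proteins that bind DNA through a conserved region called the T-box. The 10 genes described here, tbx-2, tbx-8, tbx-9, tbx-11, tbx-33, tbx-37, tbx-38, tbx-43, mab-9 and mls-1, were taken by their symbols from the deposited tables of reads and of RPKM. They are 10 of the 46589 genes of the count table and 10 of the 22 T-box genes found in it. All 10 had enough reads to be tested, although mab-9 and mls-1 had no more than 22 reads in any library.

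The measurements came from total RNA of whole Caenorhabditis elegans of the wild-type strain Bristol N2, all collected as adults 5 days after L4, the last larval stage. By the labels, 3 libraries are controls and 3 are from worms given RNAi against bcat-1 (called RNAi-labelled libraries here), the gene of the transaminase that begins the breakdown of leucine, isoleucine and valine. RNAi was by feeding, in which worms eat Escherichia coli HT115 that carry an RNAi clone, and by the methods of the study it began in young adults, which were washed free of progeny every day. Each library is therefore a pool of many animals and all of their tissues, germ line and embryos inside the mother included, and in such samples fewer cells of a type and less RNA per cell cannot be told apart.

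T-box genes are best known as switches of cell fate in the embryo. In C. elegans they act in the early embryo, the pharynx, the hindgut, the epidermis, muscle and a few neurons, and several of them work in related pairs that can stand in for each other. Some T-box proteins repress their targets through the corepressor Groucho, which is UNC-37 in the worm.

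The libraries held 32784443 to 43274827 counted reads. The target itself did not show lower levels in the RNAi-labelled libraries. The level of bcat-1 was 135.1, 135.3 and 162 CPM (counts per 1e6 counted reads after scaling) in control replicates 1 to 3 and 223, 102 and 287 CPM in the RNAi-labelled libraries (exact permutation p = 0.4, two-sided), so every direction given here is that between the labelled groups. Whether reads from the RNAi clone itself were counted toward bcat-1 was not tested, so these CPM may not be levels of the worm transcript alone. Of 16391 genes tested, 61.6% were called at an adjusted p under 0.05, 36% higher and 25.6% lower in the RNAi-labelled libraries. Higher genes made up 58.5% of the calls, and 69.3% with upper quartile scaling, 79% with library size only, 48.3% with DESeq2 and 80.2% with limma on log2(RPKM + 1). The CPM of the groups did not overlap for 71.2% of the genes tested, and the median log2 difference over all of them was 0.15. The 8 markers of germ line and oocytes were all called lower with a summed level of 5135 to 6234 CPM in the controls, against 2548 to 3217 CPM in the other group, while 9 of 10 neuronal markers were called higher. The most distant library within a group was RNAi replicate 3. Its counts differed from the others by a chi-square of 48.1 and 63.0 per degree of freedom, beside 13.8 between those 2.

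The T-box genes moved in both directions. In the RNAi-labelled libraries, 2 of the 10 genes rose (tbx-2 and mab-9), 4 fell (tbx-9, tbx-33, tbx-37 and tbx-38) and 4 did not pass the test (tbx-8, tbx-11, tbx-43 and mls-1). So 6 of 10 were called, beside 61.6% of all genes, with 2 of 10 higher beside 36% and 4 of 10 lower beside 25.6%. The CPM of the groups did not overlap for 7 of the 10, beside 71.2% of all genes. The median log2 difference of the 10 genes was -0.51, beside 0.15 over all genes tested. The numbers called and not overlapping lie near the shares of all genes, and whether the split by direction differs from that of all genes was not tested. The reads of the 10 genes summed to 100.2, 96.5 and 156 CPM in the controls, against 77.4, 81.6 and 76.1 CPM in the RNAi-labelled libraries. Control replicate 3 held the highest sum, and in these scaled CPM the groups did not overlap with or without it. By library size alone the groups did overlap. In control replicate 2 the 10 genes had 2784 of 32784443 counted reads, a smaller share than the 3358 of 38347771 in RNAi replicate 3.

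**Figure D1:**
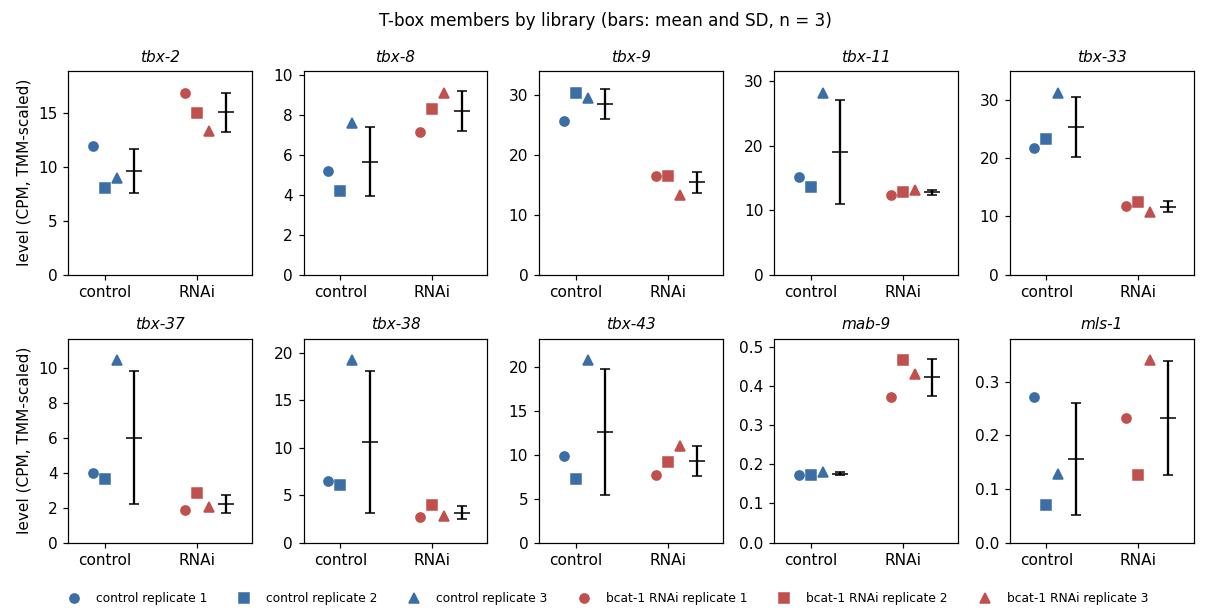
Level of each of the 10 T-box genes in each library, in CPM after TMM scaling on a linear axis from 0, with the symbols for replicates 1 to 3 and a bar for the mean and SD of each group (n = 3). The 3 control points of tbx-9 and tbx-33 lie above all 3 RNAi-labelled points, those of tbx-2 and mab-9 lie below, and control replicate 3 is far above the other controls for tbx-11, tbx-37, tbx-38 and tbx-43.

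Ordered by RPKM, reads per kilobase of exon and per 1e6 counted reads, which allows levels of genes of different length to be set side by side, tbx-9 was the most abundant of the 10. Its RPKM was 24.7 to 28.5 in the controls, a level above that of 81.8% of the genes with a read. After it came tbx-11 at 11.1 to 24.5 RPKM, tbx-33 at 13.8 to 20.0, tbx-43 at 6.58 to 20.2, tbx-38 at 5.08 to 17.1, tbx-37 at 3.09 to 9.43, tbx-2 at 3.86 to 6.09 and tbx-8 at 3.37 to 6.50 RPKM. The control range of tbx-9 lay just above that of tbx-11, with no overlap. From tbx-11 to tbx-8 the control range of each gene overlapped that of the next, so the ranges alone do not separate these neighbours. Within each control library, however, tbx-43 lay above tbx-38 and tbx-38 above tbx-37. In control replicates 1 to 3, tbx-43 was at 9.56, 6.58 and 20.2 RPKM. In the same order, tbx-38 was at 5.72, 5.08 and 17.1 RPKM and tbx-37 at 3.57, 3.09 and 9.43 RPKM. Much lower stood mls-1 at 0.0723 to 0.301 RPKM and mab-9 at 0.112 to 0.124 RPKM, above 39.7% and 36% of the genes with a read.

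The order changed with the group. In the RNAi-labelled libraries, the RPKM of tbx-2 (8.36 to 9.68) and of tbx-8 (6.85 to 9.59) lay above that of tbx-38 (2.72 to 4.04) and tbx-37 (1.88 to 2.91), whereas in the controls the ranges of these 4 genes ran into each other. Among the 22 T-box genes, tbx-2 stood at place 9 in the controls and at place 6 in the other group, and tbx-38 moved from place 7 to place 9. The highest of all 22 in both groups was sea-1, at 42.3 to 52.0 and 23.3 to 27.4 RPKM.

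**Figure D2:**
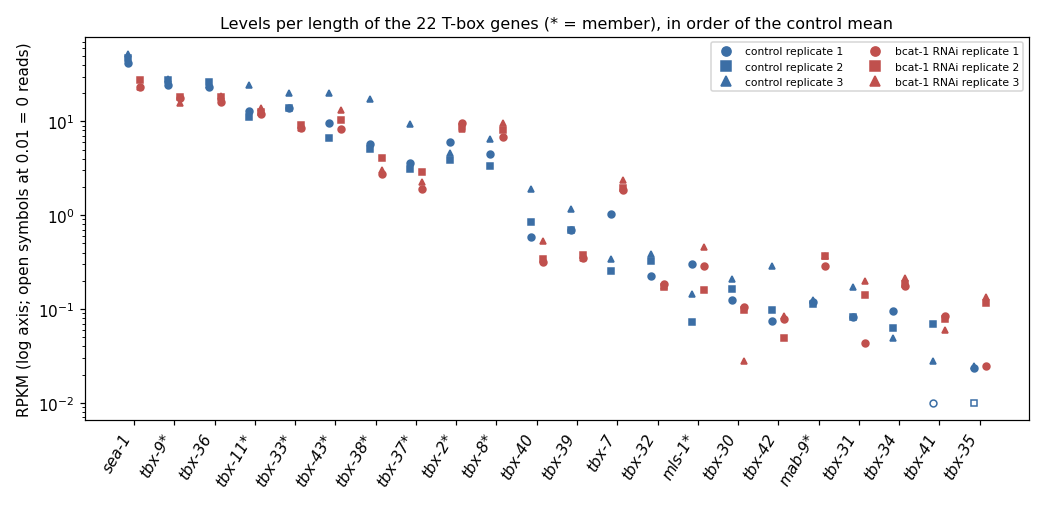
RPKM of the 22 T-box genes on a log axis, ordered by their mean in the controls, with a point for each library of each group. In the controls a gap separates the 10 most abundant genes, from sea-1 down to tbx-8, from the 12 others. Of these 12, tbx-40 has the highest control mean, and mab-9 and mls-1 are among them. In the RNAi-labelled libraries there is no such gap, since tbx-7 (1.85 to 2.35 RPKM) overlaps tbx-37 (1.88 to 2.91 RPKM).

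The gene tbx-2 (F21H11.3) encodes a TBX2-like factor needed to make the pharyngeal muscle that descends from the anterior embryonic blastomere ABa, and it also acts in the adaptation of the AWC olfactory neurons to odour. Its level was 11.9, 8.004 and 8.94 CPM in control replicates 1 to 3, against 16.8, 14.9 and 13.3 CPM in RNAi replicates 1 to 3. Every RNAi-labelled library lay above every control. The means were 9.62 ± 2.04 and 15.01 ± 1.79 CPM (SD, n = 3), a log2 difference of 0.64 ± 0.17 (SE, edgeR adjusted p = 0.0109). The call was lost without control replicate 2 (0.51, edgeR adjusted p = 0.0512) and without RNAi replicate 1 (0.53, edgeR adjusted p = 0.0616). In WBcel235 the gene lies on chromosome III from 5130923 to 5136296 on the minus strand and has 5 exons. Its nearest coding neighbours on either side, sax-2 at 246 bases and Y54H5A.2 at 1061 bases, did not pass the test.

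Of the genes of anterior pharynx fate and pharyngeal muscle, the tissue in which tbx-2 acts, most rose in the same libraries. Of 11 tested, 8 were called higher, beside 36% of all genes tested. The other 3 had log2 differences of 0.24 to 0.35, and the median of the 11 was 0.80, beside 0.15 for all genes. The pharyngeal organ selector pha-4, a FoxA factor, was at 5.57 ± 0.69 CPM in the controls, against 9.84 ± 1.31 CPM in the RNAi-labelled libraries (SD, n = 3), a log2 difference of 0.82 (edgeR adjusted p = 0.00242). The pharyngeal troponin C gene tnc-2 rose from 7.14 ± 1.81 to 14.7 ± 2.94 CPM (SD, n = 3), a log2 difference of 1.04 (edgeR adjusted p = 0.00258). The summed level of the list was 106 to 170 CPM in the controls, against 183 to 226 CPM in the other group. Neither this sum nor tbx-2 overlapped between the groups, as was so for 71.2% of all genes tested. A rise shared by the groups therefore does not tie tbx-2 to the list. Within the RNAi-labelled group, tbx-2 was lowest in replicate 3, where tnc-2 was highest, while tbx-2 and pha-4 were both highest in replicate 1. The pair tbx-37 and tbx-38, which are also required for anterior pharynx, went the other way, with log2 differences of -1.43 and -1.75. Whether a larger share of pharyngeal RNA has a part in the tbx-2 value was not tested.

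Of 9 tested genes of the AWC and AWB olfactory neurons, the former being the other place of action of tbx-2, 6 were called higher and 1 lower. Of all genes tested, 36% were called higher and 25.6% lower. The median log2 difference of the 9 genes was 1.16, beside 0.15 over all genes tested. Of the 6 called higher, all but sox-2 were low in the controls, with means from 0.14 CPM (odr-1) to 0.37 CPM (odr-3). Their differences therefore rest on few reads. The LIM homeobox gene lim-4, which sets the identity of AWB, rose from 0.22 ± 0.037 to 2.62 ± 0.66 CPM (SD, n = 3), a log2 difference of 3.60 (edgeR adjusted p = 2.8e-05). The SoxB gene sox-2 was at 31.2, 11.7 and 13.9 CPM in the controls and at 70.5, 73.9 and 63.5 CPM in the RNAi-labelled libraries. Its log2 difference was 1.87 (edgeR adjusted p = 0.00106), and its groups lay far apart. The gene that was called lower was egl-4, a cGMP-dependent protein kinase that acts in many tissues, with a log2 difference of -0.43. The 2 not called were ceh-36 (0.37, edgeR adjusted p = 0.602) and ceh-37 (0.095, edgeR adjusted p = 0.623), both named after their values were seen. Of the wider set of neuronal markers 9 of 10 were called higher, beside 36% of all genes tested, and their part in these values was not tested.

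The genes tbx-8 and tbx-9 are a related pair that act redundantly in the embryo, where they shape the body through the epidermis and the body wall muscle. They lie head to head on chromosome III, tbx-9 (T07C4.6) from 10340006 to 10341858 on the minus strand and tbx-8 (T07C4.2) from 10347349 to 10349740 on the plus strand in WBcel235. Their starts face each other across 5490 bases that hold no other coding gene.

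Of this pair, tbx-9 fell. Its level was 25.6, 30.3 and 29.4 CPM in the controls, against 16.4, 16.5 and 13.3 CPM in the RNAi-labelled libraries. The groups were well apart and the spread within each was small. The means were 28.4 ± 2.50 and 15.4 ± 1.78 CPM (SD, n = 3), a log2 difference of -0.89 ± 0.13 (SE, edgeR adjusted p = 0.000475), and the gene was called lower in all 17 alternative fits, at -1.06 to -0.61.

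Its partner tbx-8 did not follow it. The level of tbx-8 was 5.23, 4.19 and 7.60 CPM in the controls, against 7.15, 8.30 and 9.14 CPM in the RNAi-labelled libraries. Control replicate 3 lay within the range of the other group, and the other 2 controls lay below it. The log2 difference was 0.53 ± 0.22 (SE, 95% interval 0.03 to 1.02), which did not pass the test (edgeR adjusted p = 0.0605). Without control replicate 3 it was 0.78 and called (edgeR adjusted p = 0.00648), and 7 of the 17 alternative fits called it, all of them higher.

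The balance between the 2 genes was measured within each library, where no scaling between libraries enters. The RPKM of tbx-8 was 0.12 to 0.23 times that of tbx-9 in the controls and 0.39 to 0.61 times that of tbx-9 in the RNAi-labelled libraries. On the log2 scale the ratio was -2.47, -3.03 and -2.13 in controls 1 to 3, against -1.37, -1.16 and -0.72 in the RNAi-labelled replicates. All 3 RNAi-labelled ratios were above all 3 control ratios, by 1.46 in the mean. The exact permutation test gave p = 0.1, two-sided, the smallest that 3 libraries against 3 allow, and 0.15 after Benjamini-Hochberg adjustment over the 3 pairs tested.

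**Figure D3:**
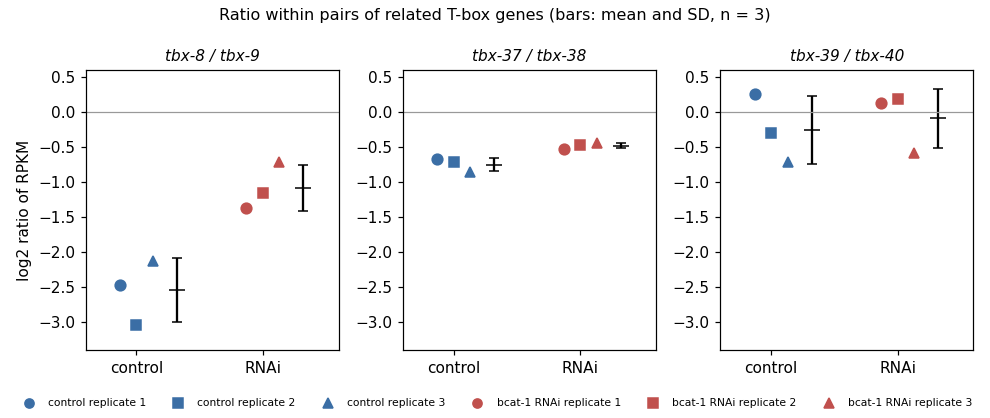
Log2 ratio of RPKM within each library for the pairs tbx-8 over tbx-9, tbx-37 over tbx-38 and tbx-39 over tbx-40, with a point for each library of each group. The tbx-8 over tbx-9 ratio is -3.03 to -2.13 in the controls and -1.37 to -0.72 in the RNAi-labelled libraries, while the points of tbx-39 over tbx-40 overlap.

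The genes tbx-37 and tbx-38 are a second redundant pair, required in the descendants of ABa for anterior pharynx and for the response to Notch signals through GLP-1. Both fell, and both had 1 control library far above the others. The level of tbx-38 (C24H11.3) was 6.44, 6.06 and 19.2 CPM in control replicates 1 to 3, against 2.72, 3.95 and 2.79 CPM in RNAi replicates 1 to 3. The level of tbx-37 (Y47D3A.12) was 3.96, 3.64 and 10.4 CPM in the controls, against 1.86, 2.81 and 2.02 CPM in the other group. For both genes the groups did not overlap, and the higher control values came from the same library.

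For tbx-38 the log2 difference was -1.75 ± 0.42 (SE, edgeR adjusted p = 0.00661), and for tbx-37 it was -1.43 ± 0.39 (SE, edgeR adjusted p = 0.0117). Control replicate 3 set much of this size. Without it tbx-38 was at -1.002 (edgeR adjusted p = 0.00335) and tbx-37 at -0.78 (edgeR adjusted p = 0.0155), both still called lower. On the RPKM scale, where limma was used on log2(RPKM + 1), neither was called (-1.10, adjusted p = 0.0572, and -0.81, adjusted p = 0.0905). The RPKM of tbx-37 was 0.55 to 0.62 times that of tbx-38 in the controls and 0.69 to 0.73 times in the RNAi-labelled libraries (exact permutation p = 0.1, two-sided, 0.15 after adjustment over the 3 pairs).

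The pair is not adjacent. On chromosome III of WBcel235, tbx-37 lies from 11224808 to 11227125 and tbx-38 from 11784082 to 11786061, both on the minus strand and each with 3 exons. The nearest coding gene to tbx-37, Y47D3A.13, lies 701 bases away on the same strand and was also called lower, from 3.88 to 1.22 CPM in the mean (log2 difference -1.67, edgeR adjusted p = 0.00279). An end of tbx-38 shares 29 exonic bases with srd-74 on the opposite strand, which had at most 15 reads in a library. Without strand the reads of such an overlap cannot be assigned, but against 117 to 744 reads of tbx-38 they were few.

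The Notch receptor gene glp-1, which acts upstream of tbx-37 and tbx-38 in the embryo and also keeps germ cells dividing, fell from 375 ± 34.4 to 212 ± 49.4 CPM (SD, n = 3), a log2 difference of -0.82 (edgeR adjusted p = 0.00278). It is also among the 8 germ line markers, all of which fell. Of the 13 tested partners and upstream regulators of T-box factors, 9 were called lower and 3 higher, beside 25.6% and 36% of all genes tested. The median log2 difference of the 13 was -0.48, beside 0.15 over all genes tested. Those that fell also include the corepressor unc-37 (-0.40), the SUMO-conjugating enzyme ubc-9 (-0.66) that binds TBX-2, and smo-1 (-0.48), which encodes SUMO itself. The 3 that rose were egl-38, hlh-8 and let-381, each at no more than 0.84 CPM in the mean of the controls. The names of ubc-9, unc-37, smo-1, hlh-8 and let-381 were chosen for their role and after their values were seen.

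Genes first transcribed in the early embryo were counted beside them, since tbx-37 and tbx-38 act at this stage. Of 12 tested, 5 were called higher and 2 lower, beside 36% and 25.6% of all genes tested. The median log2 difference of the 12 was -0.15, beside 0.15 over all genes tested. The blastomere genes end-1, med-1 and med-2 had too few reads to be tested. The forkhead gene pes-1 was at 3.00, 4.02 and 3.30 CPM in the controls and at 0.86, 1.82 and 1.13 CPM in the RNAi-labelled libraries, with no overlap. Its log2 difference was -1.42 (edgeR adjusted p = 0.0022), and the 3 controls lay close together. The early zygotic gene pes-10, named after its values were seen, was at 5.77, 6.03 and 13.96 CPM in the controls and at 3.30, 4.01 and 3.31 CPM in the other group (log2 difference -1.28, edgeR adjusted p = 0.00827). Like tbx-37 and tbx-38, pes-10 had its highest value in control replicate 3. So did hnd-1, sdz-28 and die-1, which were not called, while the other tested genes of the list, pes-1 included, did not. In the other direction, the nuclear receptor gene nhr-25, which also acts in the epidermis of later stages, rose from 5.04 ± 2.00 to 40.1 ± 6.18 CPM (SD, n = 3, log2 difference 2.98, edgeR adjusted p = 2.6e-05). The summed level of the list overlapped between the groups, at 372 to 394 CPM in the controls, against 346 to 428 CPM in the RNAi-labelled libraries. Most of the control sum came from lin-26 and die-1, at 213 and 88.9 CPM in the mean. Since lin-26 is also an epidermis marker, the sum says little on the early embryo. How far embryos inside the mothers have a part in the T-box values was not tested.

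Control replicate 3 was set against the other controls for every gene. In it, 975 of the 16391 genes tested (5.95%) were at least 1.5 times as high as in both other controls. Of the 10 T-box genes described here 4 did so, namely tbx-11, tbx-37, tbx-38 and tbx-43, and of the other 7 tested T-box genes 3 did. In control replicate 1 the same held for 5.11% of genes and for 1 of the 10, and in RNAi replicate 3 for 6.03% of genes and for none of the 10.

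**Figure D4:**
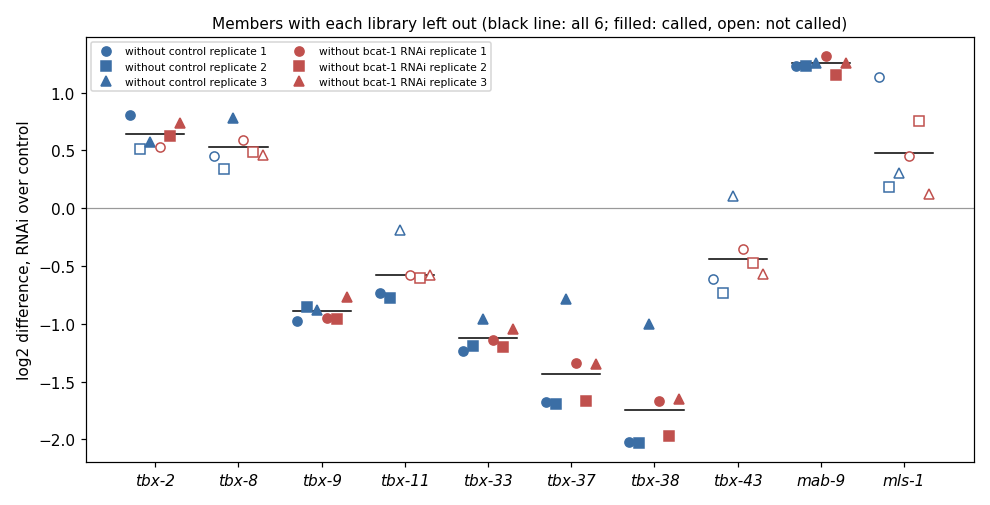
Log2 difference of each of the 10 T-box genes in the fit with all 6 libraries and in the fits that leave out each library in turn, with values above 0 higher in the RNAi-labelled libraries. Leaving out control replicate 3 moves tbx-38 from -1.75 to -1.002, tbx-37 from -1.43 to -0.78 and tbx-43 from -0.44 to 0.10, while tbx-9 stays between -0.97 and -0.77.

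The gene tbx-33 (Y66A7A.8) also fell. It was at 21.7, 23.2 and 31.2 CPM in the controls and at 11.8, 12.6 and 10.7 CPM in the RNAi-labelled libraries. The lowest control lay well above the highest library of the other group. The means were 25.4 ± 5.12 and 11.7 ± 0.91 CPM (SD, n = 3), a log2 difference of -1.12 ± 0.16 (SE, edgeR adjusted p = 0.00039). It was called lower in all 17 alternative fits, with values of -1.29 to -0.79. The gene has 5 exons from 11633216 to 11636840 on the minus strand of chromosome III in WBcel235, and its nearest coding neighbours, 3761 and 13611 bases away, did not pass the test.

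The gene tbx-11 (F40H6.4) had levels of 15.1, 13.6 and 28.2 CPM in the controls and of 12.4, 12.8 and 13.1 CPM in the RNAi-labelled libraries. The CPM of the groups did not overlap, but 2 controls lay just above the other group and the RPKM values overlapped. The log2 difference was -0.57 ± 0.25 (SE, 95% interval -1.13 to -0.02), which did not pass the test (edgeR adjusted p = 0.0693). It was called lower in 5 of 17 alternative fits, and without control replicate 3 it was -0.19 (edgeR adjusted p = 0.263). It lies from 6045615 to 6046981 on chromosome III of WBcel235, 17082 bases from tbx-7.

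The gene tbx-43 (Y46E12A.4) was at 9.88, 7.21 and 20.7 CPM in the controls and at 7.67, 9.21 and 11.02 CPM in the RNAi-labelled libraries. The groups overlapped, and control replicate 3 alone stood high. The log2 difference was -0.44 ± 0.34 (SE, 95% interval -1.21 to 0.32, edgeR adjusted p = 0.275). Without control replicate 3 the direction turned, to 0.10 (edgeR adjusted p = 0.677). It lies from 1765407 to 1770093 on the minus strand of chromosome III in WBcel235.

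The gene mab-9 (T27A1.6) encodes a TBX20-like factor that sets the fate of the hindgut cells B and F, which also build the male tail. It had 7, 5 and 7 reads in the controls and 16, 22 and 19 reads in the RNAi-labelled libraries. In CPM this was 0.17, 0.17 and 0.18 against 0.37, 0.46 and 0.43. Every RNAi-labelled library lay above every control, at a level close to the limit of what these libraries detect. The log2 difference was 1.25 ± 0.30 (SE, edgeR adjusted p = 0.00622), and DESeq2 did not call it (1.10, adjusted p = 0.118). It is the only one of the 10 off chromosome III, on chromosome II from 516024 to 521635 in WBcel235, with 9 exons.

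Of 7 tested genes of posterior and hindgut fate, 3 were called higher, beside 36% of all genes tested. The other 4 had log2 differences of 0.22 to 0.56. The median was 0.56 over the 7, beside 0.15 over all genes tested. The Pax gene egl-38, which also patterns the hindgut, was at 0.79, 0.45 and 0.54 CPM in the controls and at 4.97, 3.68 and 2.97 CPM in the RNAi-labelled libraries. Its groups lay far apart, with a log2 difference of 2.67 (edgeR adjusted p = 8.12e-05). The LIM homeobox gene ceh-14 rose from 0.88 ± 0.075 to 1.498 ± 0.33 CPM (SD, n = 3, log2 difference 0.77, edgeR adjusted p = 0.02).

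The gene mls-1 (H14A12.4) encodes a TBX1-like factor that gives uterine muscle its fate among the sex muscles that arise from the M mesoblast. It had 11, 2 and 5 reads in the controls and 10, 6 and 15 reads in the RNAi-labelled libraries, or 0.27, 0.07 and 0.13 against 0.23, 0.13 and 0.34 CPM. The groups overlapped, and control replicate 2 lay under the 3 reads that a count of 0 allows. The log2 difference was 0.48 with a 95% interval of -0.71 to 1.68 (edgeR adjusted p = 0.445), so no difference was detectable at this depth. It lies from 7460341 to 7461934 on the plus strand of chromosome III in WBcel235 and has 5 exons. Of 9 tested genes of the M lineage and the sex muscles, 7 were called higher and 1 lower, beside 36% and 25.6% of all genes tested. The median log2 difference of the 9 genes was 0.71, beside 0.15 over all genes tested. Among them mls-2, a homeobox gene of the M lineage, rose from 9.12 ± 4.35 to 18.2 ± 1.30 CPM (SD, n = 3, log2 difference 0.99, edgeR adjusted p = 0.0181), and fozi-1, a zinc finger gene of the same lineage, rose from 7.47 ± 0.51 to 13.1 ± 0.49 CPM (SD, n = 3, log2 difference 0.81, edgeR adjusted p = 0.000647).

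**Figure D5:**
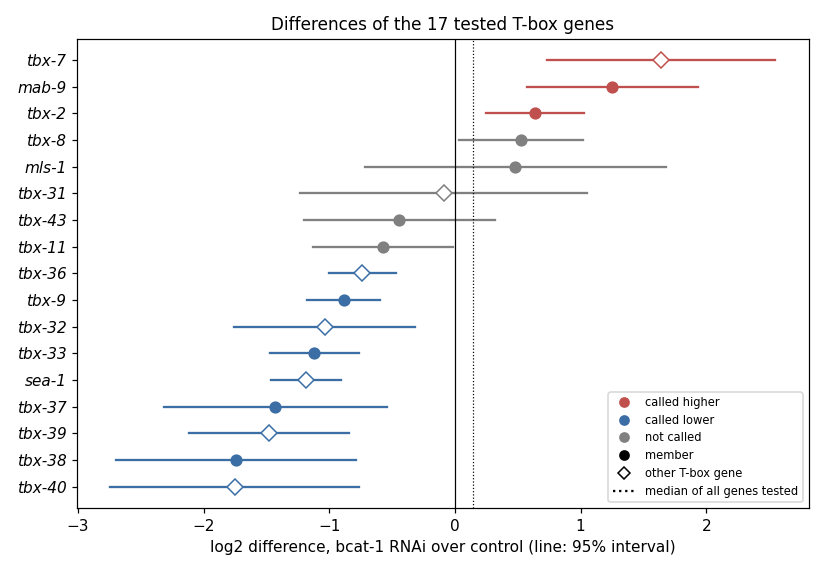
Log2 difference of the RNAi-labelled libraries over the controls for the 17 tested T-box genes, with bars for the 95% interval, coloured red where called higher, blue where called lower and grey where not called, filled for the 10 genes described here and open for the others. The called genes run from tbx-40 at -1.75 to tbx-7 at 1.64, and those whose interval comes near or crosses 0 include tbx-8, tbx-11, tbx-43, mls-1 and tbx-31.

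Of the 12 other T-box genes of the table, 7 could be tested, with 5 called lower and 1 higher. Of all genes tested, 25.6% were called lower and 36% higher. The median log2 difference of the 7 was -1.04, beside 0.15 over all genes tested. Whether their split by direction differs from that of all genes was not tested. The most abundant, sea-1, is an autosomal signal that counts against the X chromosomes in sex determination, and it fell from 63.9 ± 6.82 to 28.1 ± 3.33 CPM (SD, n = 3), a log2 difference of -1.19 (edgeR adjusted p = 7.34e-05). Also lower were tbx-36 (-0.74), tbx-39 (-1.48), tbx-40 (-1.75) and tbx-32 (-1.04), of which tbx-32 lost its call in 7 of 16 alternative fits. Leaving out control replicate 3 took tbx-40 to -1.14, and tbx-40 was not called on the RPKM scale. Of the neighbours tbx-39 and tbx-40, 1656 bases apart on chromosome IV, each had at most 90 reads in a library.

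The gene that rose was tbx-7, from 1.31, 0.35 and 0.44 CPM to 2.11, 2.20 and 2.45 CPM (log2 difference 1.64, edgeR adjusted p = 0.00694). Control replicate 1 was the highest of the controls, and without it the log2 difference was 2.48. An end of tbx-7 shares 28 exonic bases on the opposite strand with cyk-3, which had up to 5739 reads, beside 10 to 108 reads of tbx-7, so a part of these reads cannot be assigned. The gene tbx-31 did not pass the test (-0.09, 95% interval -1.23 to 1.05).

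The remaining 5 genes, tbx-30, tbx-34, tbx-35, tbx-41 and tbx-42, had 0 to 11 reads in a library and were not tested across genes. Exact permutation tests on their levels gave p = 0.1 for tbx-30, tbx-34 and tbx-42 and p = 0.3 for tbx-35 and tbx-41, two-sided, and 0.167 to 0.3 after adjustment over the 5 genes. The gene tbx-35, which specifies the embryonic blastomere MS, had 1, 0 and 1 reads in the controls and 1, 5 and 5 reads in the RNAi-labelled libraries. The reads of tbx-30 and tbx-42, near-identical copies, are uncertain because only uniquely mapped reads were counted.

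Besides the T-box itself, most of the 10 genes share a chromosome. In WBcel235, 9 of the 10 lie on chromosome III, where they are spread from 1765407 (tbx-43) to 11786061 (tbx-38). The other T-box genes tbx-7 and tbx-34 lie on chromosome III too. The genes on this chromosome include rises and falls alike, with tbx-2 higher and tbx-9, tbx-33, tbx-37 and tbx-38 lower. Of the 14 tested coding neighbours of the 10 genes that are not themselves among them, 1 was called higher and 4 lower. Of all genes tested, 36% were called higher and 25.6% lower. The number of lower neighbours thus lies near the share of all genes and that of higher neighbours below it, a difference that was not tested. The higher neighbour was F40H6.5 beside tbx-11, from 0.079 to 0.49 CPM in the mean (log2 difference 2.52, edgeR adjusted p = 0.00184). Those lower were Y47D3A.13 beside tbx-37, T07C4.3 beside tbx-8 and both neighbours of tbx-43, cnc-6 and Y39A3CL.4, so tbx-8 and tbx-43 did not pass the test where a neighbour fell.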

How the data were processed

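Total RNA was made into libraries with a TruSeq kit that does not mark strand. By the study's methods, the authors aligned the reads to WBcel235 using TopHat2 2.0.6 and counted those with a unique place per gene in featureCounts. The sources used here give neither the version nor the strand setting of featureCounts. CASAVA is also named in the submitters' processing notes. The deposited counts carry no normalization. The deposited RPKM values were made by the authors from these counts and exon lengths: the length they imply was whole within 0.001 base for 100% of values with a read.

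Genes were filtered with filterByExpr (16391 of 46589 kept), scaled by TMM and tested on the counts with edgeR 4.0.16 in R 4.3.3 (quasi-likelihood, two-sided, with no covariate). Adjustment of p-values was by Benjamini-Hochberg over the 16391 genes, and genes were called under 0.05. Levels are CPM, and differences are log2 of bcat-1 RNAi over control. The study used DESeq and edgeR, and DESeq2 1.42.0 and limma 3.58.1 (voom, and RPKM with 1 or 0.1 added) were run as alternatives here, with other scalings, other filters and each library left out. Genes under the filter and single ratios had exact permutation tests. Groups came from the labels, which give no replicate numbers, lanes or dates, so replicates were numbered in order of deposition as names only. No label says that the libraries are from separate cultures, and p-values cover no more than the spread among 6 libraries, possibly a technical one. Libraries within a group differed by more than sampling noise (chi-square per degree of freedom of at least 13.8). Positions came from Ensembl release 115 on the same build, whose exon lengths differ somewhat from those behind the RPKM.

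The members, lists and rule for naming genes were chosen with earlier results of these data known. The rule takes the 10 genes, the other T-box genes, bcat-1, the 2 called genes with the largest difference of each list whose higher mean reached 1 CPM, and overlapping or neighbouring genes. Of the listed symbols, tbx-44, tbx-46, marg-1, cdx-1 and vet-4 were not matched and are not used here. Marker lists of other tissues gave 2 higher and 4 lower of 8 for body wall muscle, 4 higher of 5 for pharyngeal muscle, 2 higher and 3 lower of 8 for intestine, 6 higher of 8 for epidermis and 3 higher of 4 for sperm. Of all genes tested, 36% were called higher and 25.6% lower.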

Additional observations from a re-analysis of the deposited data

How the results depend on the processing

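The calls of tbx-9 and tbx-33 held in all 17 alternative fits, as did those of sea-1, tbx-36 and tbx-7. Of the 10 genes, 2 were called higher in the main fit. This number was 1 with a filter of 1 CPM in 3 libraries, at which mab-9 and mls-1 were not tested, and 1 with DESeq2. It was 3 with upper quartiles, library size only, voom and each RPKM fit, and 1 to 3 when libraries were left out. The number called lower was 4 in the main fit and 2 on each RPKM scale. It was 5 with the DESeq2 size factors, with DESeq2 and with no filter beyond 1 read, and 4 to 5 when libraries were left out. The other T-box genes called lower numbered 2 at the 1 CPM filter and 3 on log2(RPKM + 1), with or without a filter on RPKM, and 4 to 5 when libraries were left out. Of all genes, 1947 were called lower with scaling by library size only, 1768 on log2(RPKM + 1), 1429 on log2(RPKM + 0.1) and 1677 with an RPKM of at least 0.1 in 3 libraries, against 4189, and the cause was not tested. Scaling moved the median of all genes from 0.15 to 0.02 with the DESeq2 size factors, 0.28 with upper quartiles and 0.40 with library size only, and higher genes made up 58.5% of calls, 51.7%, 69.3% and 79% in that order, 48.3% with DESeq2, and 80.2%, 83.5% and 82.8% in the RPKM fits. The calls of the 10 genes kept their direction under these scalings. Direction turned for tbx-43 without control replicate 3 (0.10, the range over left-out libraries being -0.73 to 0.10) and for tbx-31, never called, with upper quartiles (0.049), library size only (0.16), log2(RPKM + 1) with or without the RPKM filter (0.018), log2(RPKM + 0.1) (0.064), without control replicate 3 (0.34) and without RNAi replicate 1 (0.27), the range over left-out libraries being -0.46 to 0.34. Over the 10 genes, 145 values kept their direction and side of the threshold, 12 gained a call, 9 lost one and 1 turned. Without both control replicate 1 and RNAi replicate 3, mls-1 was not tested. No paired analysis was possible because the labels give no replicate numbers. Counts of 2 to 22 reads limit mab-9 and mls-1.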
